A study of Homo sapiens with 30 samples.

Results

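The expression of 27 genes of cholesterol synthesis and sterol regulation, out of 60675 genes in the table, was followed in SW1783, an established human astrocytoma cell line. The genes were chosen by name. They comprise 8 enzymes of the mevalonate steps, 11 enzymes of the squalene and sterol steps, 5 genes of sterol control and transport, and 3 genes driven by the liver X receptors (LXR). Other enzymes of the pathway were not analysed here. Cells were kept for 24 h with the ethanol extract of 1 of 4 decoctions of traditional Korean medicine, each at 500, 100 or 20 µg/mL, or with the solvent DMSO as vehicle, and RNA was sequenced in 30 libraries. There were 3 libraries per concentration of Soshiho-tang and of Yijin-tang, 2 of Okbyeongpung-san and 1 of Soyo-san, and 3 of the vehicle. Soshiho-tang, Yijin-tang and vehicle libraries are titled batch E, the Soyo-san libraries batch D, and Okbyeongpung-san has 1 library of each batch at each concentration. Library names set the vehicle apart from the extracts, and Soshiho-tang and Yijin-tang apart from Okbyeongpung-san and Soyo-san, so that library set and treatment cannot be told apart in contrasts with the vehicle or between these pairs of extracts. Only Soshiho-tang against Yijin-tang, and the concentrations of 1 extract, are compared within a set.

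Cholesterol is built from acetyl-CoA through mevalonate, squalene and lanosterol by enzymes whose genes are driven together by the transcription factor SREBP2, the product of SREBF2. When sterols are plentiful in the endoplasmic reticulum, the proteins INSIG1 and INSIG2 hold back SCAP, the escort of SREBP2, and the genes fall. Oxidised sterols also activate LXR, which drives the cholesterol exporters ABCA1 and ABCG1 and MYLIP, a ubiquitin ligase that sends lipoprotein receptors to degradation. In the brain, astrocytes are a main source of cholesterol.

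Total estimated counts per library lay between 23.9 M and 33.1 M (M for mega) with a median of 27.4 M, and levels are CPM, counts divided by library size, scaled by the trimmed mean of M values (TMM) over all 30 libraries. Nothing in the labels states that replicates were separate cultures, and p-values therefore reflect the spread among the libraries sequenced, which may be technical. Of 7 astrocyte and glial markers, 4 were near 0: GFAP did not exceed 0.205 CPM, S100B 0.252 CPM, AQP4 0.0702 CPM and ALDH1L1 0.0966 CPM in any library. The glutamate transporter SLC1A3 lay between 18.1 and 35.1 CPM, nestin (NES) between 4.68 and 16.3 CPM and vimentin (VIM) between 3754 and 5589 CPM. Among replicate pairs, the third Yijin-tang library at 500 µg/mL differed most from the others of its group, with 39.47 in chi-square per degree of freedom against the first and 23.52 against the second, where the lowest of all 24 pairs was 3.21. The share of counts on mitochondrial genes was 6.94% to 7.79% in Soshiho-tang at 500 µg/mL, 6.37% to 9.03% in Soshiho-tang at 20 µg/mL, 6.70% to 10.6% in Yijin-tang at 500 µg/mL, 7.15% to 9.59% in Yijin-tang at 20 µg/mL, 5.68% and 6.81% in Okbyeongpung-san at 500 µg/mL, 8.11% and 8.36% in Okbyeongpung-san at 20 µg/mL, and 10.5% to 10.7% in vehicle. The numbers of sterol genes called at 500 against 20 µg/mL were the same with mitochondrial genes left out. All libraries are of the same cell line, and in bulk RNA fewer cells expressing a gene and less of its RNA per cell cannot be told apart.

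At 500 against 20 µg/mL, a part of the sterol pathway genes fell in each of the 3 replicated extracts, in Okbyeongpung-san the fewest. In Soshiho-tang 13 of the 27 genes fell and 1 rose, a share of 51.9% called at an adjusted p under 0.05 in edgeR's quasi-likelihood test, where 28.6% of all 16872 genes tested were called (14.5% higher and 14.2% lower). In Yijin-tang 12 fell, a share of 44.4%, where 5.54% of all genes were called (2.59% higher and 2.95% lower). At an unadjusted p under 0.05 in that test, 1 of the 27 genes was higher and 14 lower in Yijin-tang, where 1546 of all 16872 genes were higher and 1532 lower. At that threshold 1 was higher and 14 lower in Soshiho-tang (3294 and 3104 of all genes). Okbyeongpung-san had 2 higher and 11 lower (2137 and 2148 of all genes). DESeq2 called the same 12 genes in Yijin-tang at an adjusted p under 0.05. In Okbyeongpung-san 4 of the 26 genes tested fell, a share of 15.4%, where 10.7% of all genes were called (5.42% higher and 5.29% lower). Differences are log2 fold changes, here of 500 over 20 µg/mL, with their standard errors (SE). Below, groups whose libraries lie fully apart are said not to overlap, and the share of all genes without overlap was not computed. With 2 libraries per group, as in Okbyeongpung-san, libraries can readily lie apart without any difference. The median log2 fold change of the 27 genes was -0.12 in Soshiho-tang and -0.20 in Yijin-tang, and that of the 26 was -0.14 in Okbyeongpung-san, whereas the median over all genes was 0.01, 0.00 and 0.01 in the same order of extracts. Soshiho-tang and Yijin-tang at these concentrations share no library, but they belong to the same library set and were tested in the same fit. In both, 11 genes fell: HMGCS1, IDI1, FDFT1, SQLE, MSMO1, SC5D, DHCR7, SREBF2, INSIG1, STARD4 and MYLIP. These were 11 of 13 that fell in Soshiho-tang and 11 of 12 that fell in Yijin-tang. SQLE, DHCR7, INSIG1 and MYLIP fell in all 3 extracts. The share of all genes that fell in both, or in all 3, was not computed. Without the third Yijin-tang library at 500 µg/mL, 11 genes fell in Yijin-tang, with FDFT1 (adjusted p of 0.0348 with all libraries) lost. With only the libraries of the concentrations compared in the fit, 8 fell in Yijin-tang, with FDFT1, SC5D, DHCR7 and MYLIP lost, and 2 in Okbyeongpung-san, with DHCR7 and INSIG1 lost.

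Markers of fibroblast and mesenchymal cells (COL1A1, COL1A2, PDGFRB and THY1) also moved at these concentrations. For comparison, 28.6% of all genes were called in Soshiho-tang, 5.54% in Yijin-tang and 10.7% in Okbyeongpung-san. All 4 fell in Soshiho-tang, with a summed level of 2723 to 3028 CPM at 500 µg/mL against 5095 to 5577 CPM at 20 µg/mL. In Yijin-tang 1 of 4 fell, with 4664 to 4780.0 CPM at 500 µg/mL against 5180.0 to 5283 CPM at 20 µg/mL, and in Okbyeongpung-san 2 of 4 fell, with 3794 and 4521 CPM at 500 µg/mL against 5189 and 5359 CPM at 20 µg/mL. Of 4 epithelial markers, EPCAM and CDH1 were near 0 in all libraries, at most 0.288 CPM, while KRT8 and KRT18 were tested. Both fell in Soshiho-tang and KRT18 alone fell in Yijin-tang and Okbyeongpung-san. The summed epithelial level was 58.4 to 63.2 CPM at 500 µg/mL against 150.3 to 165 CPM at 20 µg/mL in Soshiho-tang, 117 to 118 CPM against 149 to 172 CPM in Yijin-tang, and 77.6 and 80.6 CPM against 142 and 152 CPM in Okbyeongpung-san. Of 4 neuronal markers tested, 2 fell in Soshiho-tang and 2 in Yijin-tang, with a summed level of 103 to 109 CPM at 500 µg/mL against 137 to 142 CPM at 20 µg/mL in Soshiho-tang. In Yijin-tang that sum was 119.6 to 130.2 CPM at 500 µg/mL against 142 to 147 CPM at 20 µg/mL, and in Okbyeongpung-san 121 and 144 CPM at 500 µg/mL against 149.9 and 150.2 CPM at 20 µg/mL. Of the 4 leukocyte markers, 1 rose and 2 fell in Soshiho-tang, 1 fell in Yijin-tang and 1 of 3 tested fell in Okbyeongpung-san, and their summed levels at both concentrations overlapped in Yijin-tang and Okbyeongpung-san but were 201 to 232 CPM at 500 µg/mL against 138 to 196 CPM at 20 µg/mL in Soshiho-tang. PTPRC, the leukocyte marker that fell in all 3 extracts, had 4.17 to 4.76 CPM at 500 µg/mL against 12.3 to 12.9 CPM at 20 µg/mL in Soshiho-tang. The summed astrocyte and glial level, mostly VIM, was 4308 to 4609 CPM at 500 µg/mL against 4950 to 5627 CPM at 20 µg/mL in Soshiho-tang. It was 4103 to 4655 CPM against 5004 to 5245 CPM in Yijin-tang, and 3798 and 4816 CPM against 4560 and 5418 CPM in Okbyeongpung-san. NES went the other way in Soshiho-tang, with 10.2 to 11.1 CPM at 500 µg/mL against 7.37 to 8.08 CPM at 20 µg/mL. The summed level of the endothelial markers PECAM1, CDH5 and KDR, mostly KDR, was 38.0 to 40.1 CPM at 500 µg/mL against 35.5 to 37.3 CPM at 20 µg/mL in Soshiho-tang. It was 32.9 to 36.9 CPM against 32.7 to 35.9 CPM in Yijin-tang, and 34.5 and 44.8 CPM against 34.9 and 42.9 CPM in Okbyeongpung-san. The part of these marker shifts in the sterol gene values was not tested.

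**Figure D1:**
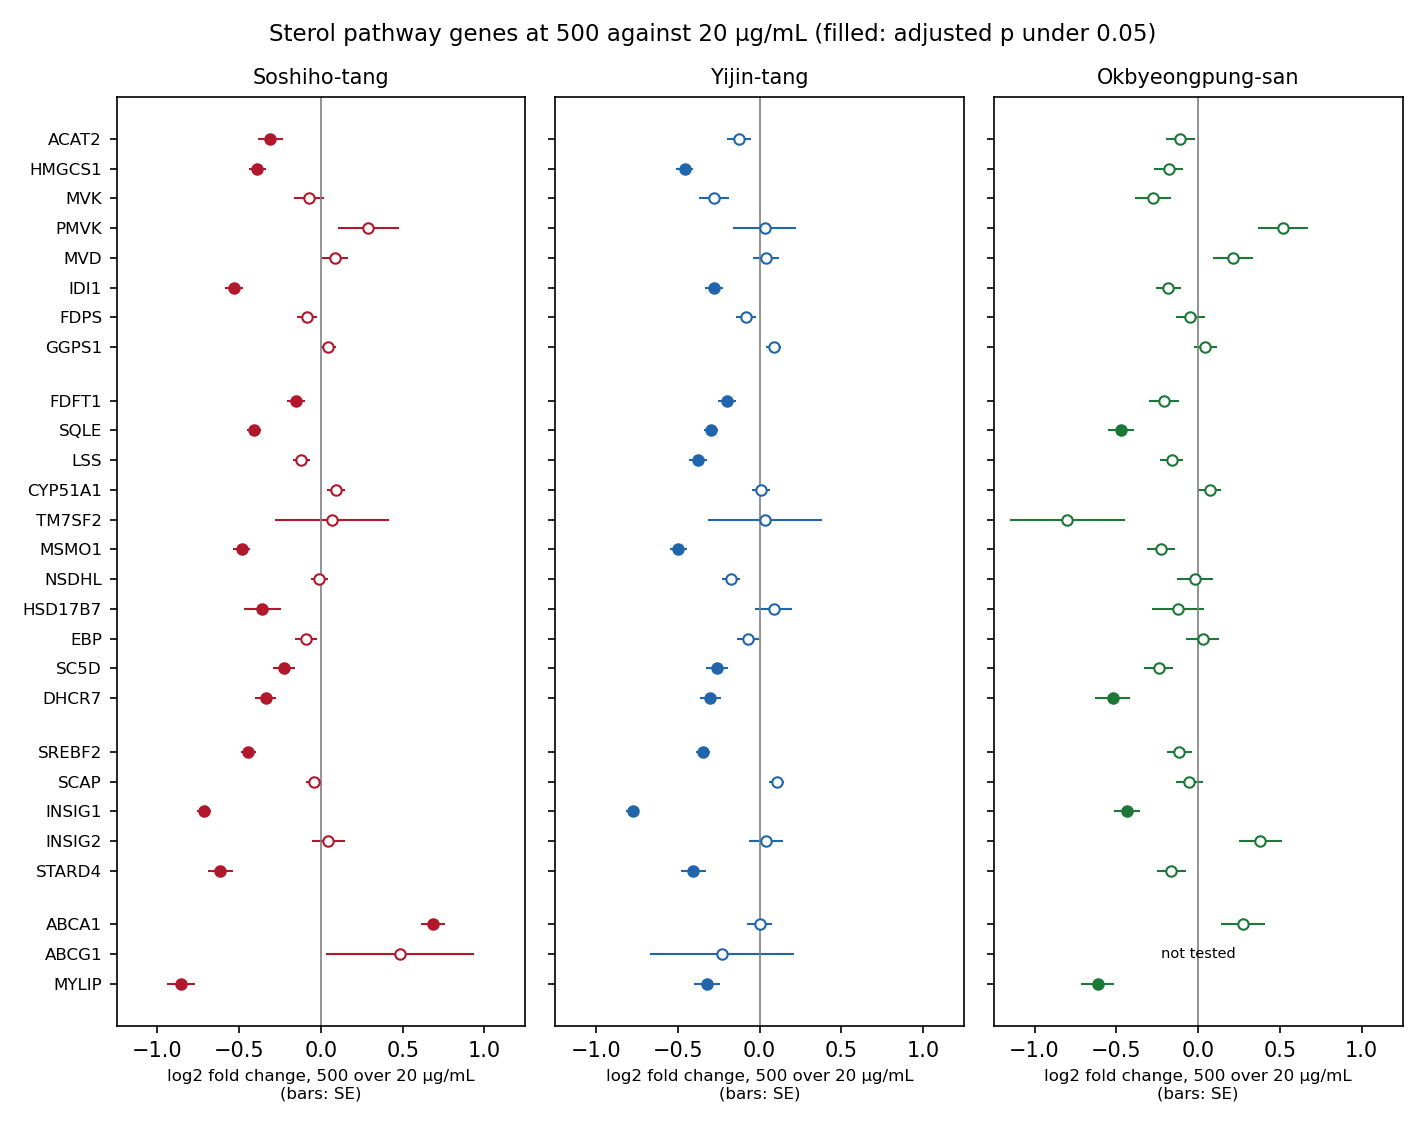
Log2 fold change at 500 over 20 µg/mL of the 27 sterol pathway genes in Soshiho-tang, Yijin-tang and Okbyeongpung-san, with genes listed down the page from mevalonate steps through sterol steps and control to LXR-driven genes; bars are standard errors and filled points have an adjusted p under 0.05. Filled points lie left of 0 for 13 genes in Soshiho-tang, 12 in Yijin-tang and 4 in Okbyeongpung-san, and ABCA1 in Soshiho-tang is the single filled point on the right.

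INSIG1 (chr7:155297776-155310235, GRCh38), the protein that holds back SCAP when sterols are plentiful, fell with each step of concentration in Soshiho-tang and Yijin-tang. In Soshiho-tang its level was 153, 153 and 153 CPM at 20 µg/mL, 118, 118 and 119 CPM at 100 µg/mL and 92.9, 94.6 and 92.3 CPM at 500 µg/mL. In Yijin-tang it was 180.0, 180.0 and 192 CPM at 20 µg/mL, 152, 147 and 152 CPM at 100 µg/mL and 109, 109 and 105 CPM at 500 µg/mL. Within each of both extracts, no library of any concentration overlapped with those of another. The log2 fold change of 500 over 20 µg/mL was -0.72 ± 0.04 SE, adjusted p = 2.05e-12 in Soshiho-tang and -0.78 ± 0.04 SE, adjusted p = 8.13e-12 in Yijin-tang, where INSIG1 ranked as number 2 of all genes tested by p. Okbyeongpung-san gave 136 and 134 CPM at 500 µg/mL against 185 and 179 CPM at 20 µg/mL, again without overlap (-0.43 ± 0.08 SE, adjusted p = 0.00642; the adjusted p was 0.0545 with only these groups in the fit). Within batches, INSIG1 in Okbyeongpung-san differed between 500 and 20 µg/mL by -0.42 (batch D) and -0.44 (batch E) in log2 ratio.

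At 100 against 20 µg/mL INSIG1 was the only gene of the 27 called in Soshiho-tang, a share of 3.7%, where 8 of all genes (0.0474%) were called, 0.00593% higher and 0.0415% lower. It was also the only one of the 27 called in Yijin-tang, where 2 of all genes (0.0119%) were called, both lower. It ranked as number 1 of all 16872 genes by p in both, with -0.37 ± 0.04 SE, adjusted p = 5.82e-05 in Soshiho-tang and -0.29 ± 0.04 SE, adjusted p = 0.00441 in Yijin-tang. Several other sterol genes lay lower at 100 µg/mL without passing the test: 24 of the 27 log2 fold changes in Soshiho-tang were below 0, with a median of -0.13, and 21 in Yijin-tang, with a median of -0.10, against medians over all genes of 0.00 in both. HMGCS1, the next by p in Soshiho-tang, had -0.27 ± 0.05 SE, adjusted p = 0.0527. Between 2 and 4 of the genes were called in Soshiho-tang with DESeq2, another scaling, no filter on low counts, the replicate numbers as a block or mitochondrial genes left out. In Yijin-tang the INSIG1 call was lost without the third 20 µg/mL library, whose 192 CPM was the highest of all 30, and with only these groups in the fit. In Okbyeongpung-san edgeR and DESeq2 called 0% of genes at 100 against 20 µg/mL (145 of 16606 genes, and 0 of the 26, had an unadjusted p under 0.05 in edgeR), and INSIG1 stood at 176 and 154 CPM at 100 µg/mL against 185 and 179 CPM at 20 µg/mL.

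**Figure D2:**
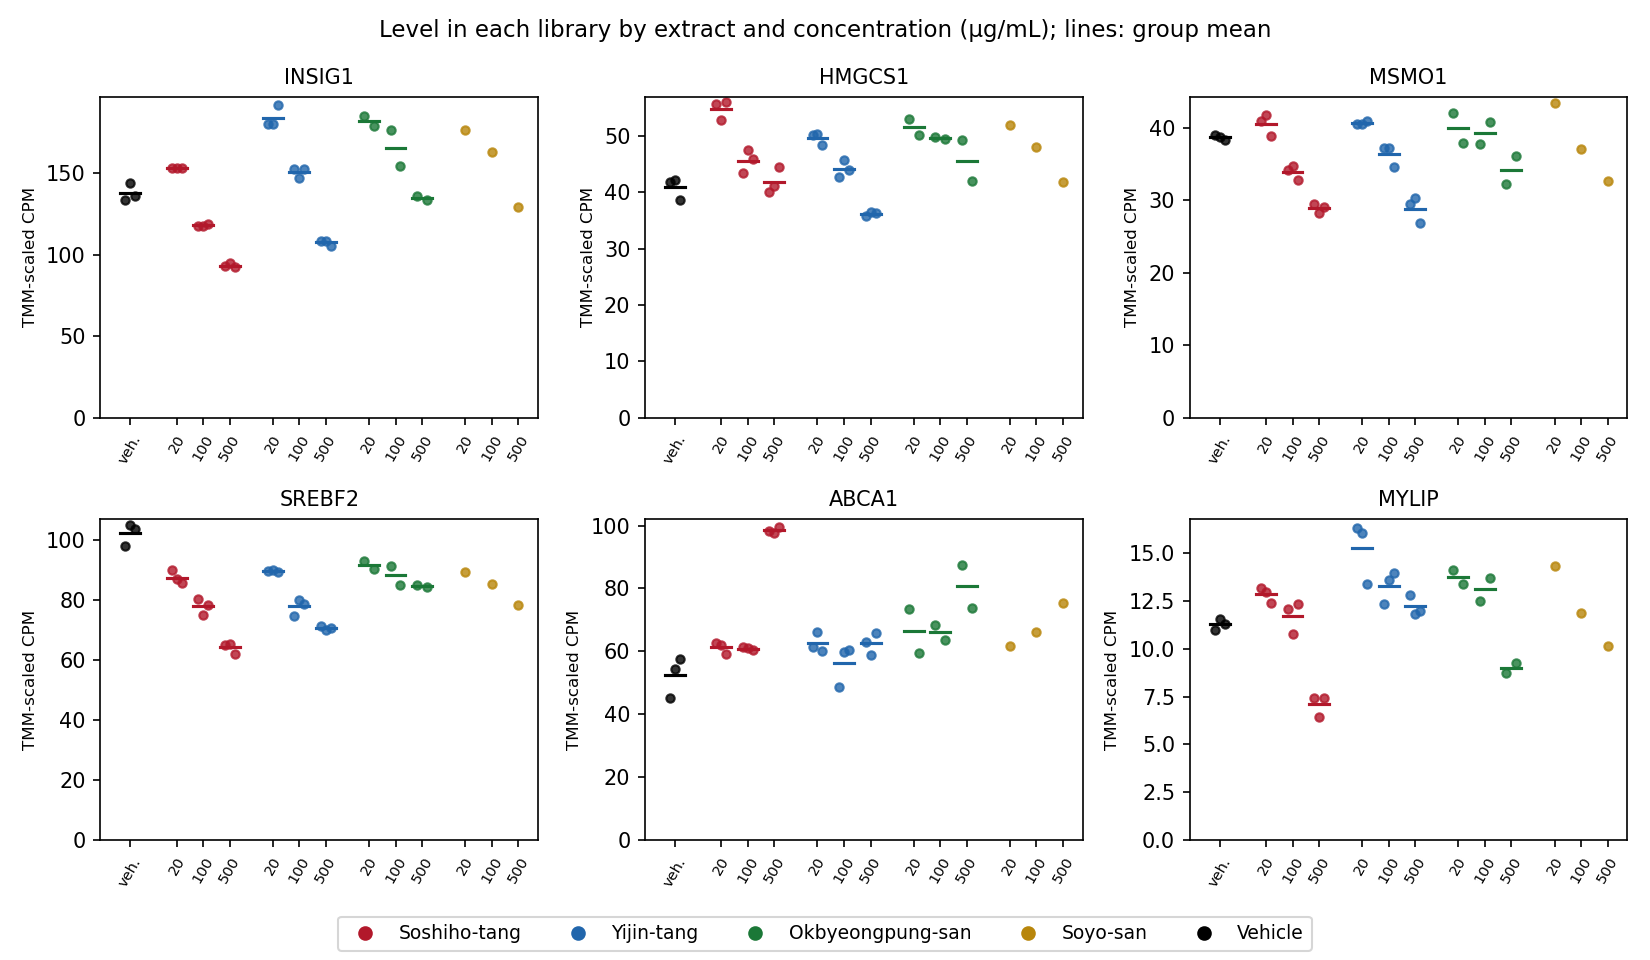
TMM-scaled CPM of 6 genes in each of the 30 libraries (points) by extract and concentration in µg/mL, with vehicle at the left; horizontal lines are group means where a group has more than 1 library. INSIG1 falls at each concentration step in Soshiho-tang and Yijin-tang, and ABCA1 stands between 97.7 and 99.5 CPM in Soshiho-tang at 500 µg/mL, above every other library.

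The promoters of MYLIP, INSIG1, STARD4 and IDI1 are shown because these genes had the largest falls in Soshiho-tang, and that of SREBF2 because it holds a match to the sterol regulatory element core. Sequences are the 250 bases before the start of transcription in RefSeq (GRCh38.p14), 5′ to 3′ on the strand of the gene. Capitals mark CCAAT, or its reverse complement, the box bound by NF-Y that works beside SREBP at many sterol-regulated promoters, and in SREBF2 also TCACNCCAC, a core of the sterol regulatory element. INSIG1 spans chr7:155297628-155297877, plus strand; SREBF2 chr22:41832855-41833104, plus strand; IDI1 chr10:1049120-1049369, minus strand; STARD4 chr5:111512536-111512785, minus strand; and MYLIP chr6:16128836-16129085, plus strand.
INSIG1: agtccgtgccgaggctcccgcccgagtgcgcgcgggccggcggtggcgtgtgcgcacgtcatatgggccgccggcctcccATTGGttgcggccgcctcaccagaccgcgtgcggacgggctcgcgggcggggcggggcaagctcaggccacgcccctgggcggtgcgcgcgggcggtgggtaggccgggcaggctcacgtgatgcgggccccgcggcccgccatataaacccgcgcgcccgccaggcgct
SREBF2: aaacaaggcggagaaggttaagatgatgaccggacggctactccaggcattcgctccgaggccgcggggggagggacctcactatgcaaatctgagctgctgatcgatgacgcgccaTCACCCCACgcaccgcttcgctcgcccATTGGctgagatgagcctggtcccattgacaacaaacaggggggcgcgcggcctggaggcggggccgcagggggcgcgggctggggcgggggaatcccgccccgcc
IDI1: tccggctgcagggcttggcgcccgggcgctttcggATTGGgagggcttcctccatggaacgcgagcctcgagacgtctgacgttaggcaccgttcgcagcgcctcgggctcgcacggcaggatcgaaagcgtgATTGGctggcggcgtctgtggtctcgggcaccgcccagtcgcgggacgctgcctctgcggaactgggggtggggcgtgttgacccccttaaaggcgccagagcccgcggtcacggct
STARD4: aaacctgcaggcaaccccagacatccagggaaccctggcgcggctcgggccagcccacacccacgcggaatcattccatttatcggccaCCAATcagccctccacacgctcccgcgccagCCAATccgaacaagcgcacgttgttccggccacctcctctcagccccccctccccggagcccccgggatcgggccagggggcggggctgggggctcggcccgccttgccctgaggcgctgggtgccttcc
MYLIP: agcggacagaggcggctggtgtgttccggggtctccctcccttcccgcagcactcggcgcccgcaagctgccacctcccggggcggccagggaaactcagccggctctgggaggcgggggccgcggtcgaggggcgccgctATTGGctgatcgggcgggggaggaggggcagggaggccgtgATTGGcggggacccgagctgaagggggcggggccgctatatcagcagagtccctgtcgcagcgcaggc

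Of the 27 genes, 23 had windows of 300 bases (250 before and 50 after the start), 31 windows in all, and both strands were searched. CCAAT was found in 20 of the 31 windows (64.5%), against 34.6% of all 35116 windows in the table. GGGCGG, the GC box bound by SP1, was found in 28 of the 31 (90.3%), against 45.0% of all windows and 56.3% of those of protein-coding genes. TCACNCCAC was found in 1 of the 31 (3.23%), that of SREBF2 with its first base 133 before the start, against 1.13% of all windows. SREBF2 was chosen for display after this match was seen. GGGCGG is not marked in the sequences, and some of its matches overlap each other. A match describes letters in the window only.

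Among the control and transport genes, 3 of 5 fell in both Soshiho-tang and Yijin-tang and 1 in Okbyeongpung-san. SREBF2 (chr22:41833079-41907308), the gene of SREBP2 itself, stood at 65.1, 65.5 and 62.1 CPM at 500 µg/mL of Soshiho-tang against 89.95, 86.9 and 85.6 CPM at 20 µg/mL (-0.45 ± 0.04 SE, adjusted p = 2.98e-08). In Yijin-tang it was 71.3, 69.9 and 70.8 CPM at 500 µg/mL against 89.6, 90.00 and 89.3 CPM at 20 µg/mL (-0.35 ± 0.04 SE, adjusted p = 2.10e-05). Neither extract had overlap between both concentrations. In Okbyeongpung-san the levels, 85.1 and 84.4 CPM at 500 µg/mL and 92.8 and 90.3 CPM at 20 µg/mL, did not overlap either, but the difference did not pass the test (-0.11 ± 0.07 SE, adjusted p = 0.368). STARD4 (chr5:111496033-111512590), a carrier of cholesterol between membranes, stood at 26.9, 27.8 and 29.9 CPM at 500 µg/mL of Soshiho-tang against 44.6, 45.1 and 39.7 CPM at 20 µg/mL (-0.62 ± 0.08 SE, adjusted p = 8.83e-07). In Yijin-tang STARD4 was 34.1, 31.3 and 26.99 CPM at 500 µg/mL against 42.5, 39.8 and 40.1 CPM at 20 µg/mL (-0.41 ± 0.08 SE, adjusted p = 0.00174). Both sets of libraries were separate, and in Okbyeongpung-san STARD4 had 36.5 and 33.6 CPM at 500 µg/mL against 40.6 and 37.8 CPM at 20 µg/mL (-0.16 ± 0.09 SE, adjusted p = 0.271). SCAP lay between 83.04 and 105 CPM over all libraries and INSIG2, the second INSIG protein, between 8.66 and 14.8 CPM. Neither was called at 500 against 20 µg/mL in any extract, and the highest INSIG2 value was 0.38 ± 0.13 SE in Okbyeongpung-san (adjusted p = 0.0908).

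Of the 8 enzymes of the mevalonate steps, ACAT2, HMGCS1 and IDI1 fell in Soshiho-tang, HMGCS1 and IDI1 in Yijin-tang, and none passed the test in Okbyeongpung-san. HMGCS1 (chr5:43289395-43313512), which makes HMG-CoA, stood at 40.1, 41.04 and 44.5 CPM at 500 µg/mL of Soshiho-tang against 55.6, 52.8 and 55.95 CPM at 20 µg/mL (-0.39 ± 0.05 SE, adjusted p = 2.45e-06). In Yijin-tang it was 35.8, 36.5 and 36.3 CPM at 500 µg/mL against 50.1, 50.3 and 48.4 CPM at 20 µg/mL (-0.46 ± 0.05 SE, adjusted p = 4.75e-06). The 500 µg/mL libraries lay below all 20 µg/mL libraries in both. They did so in Okbyeongpung-san too, with 49.2 and 41.97 CPM at 500 µg/mL and 52.97 and 50.2 CPM at 20 µg/mL, but the difference did not pass the test (-0.18 ± 0.09 SE, adjusted p = 0.239). IDI1 (chr10:1039152-1049170), which isomerises the pathway's isoprene unit, was 29.7, 31.9 and 31.9 CPM at 500 µg/mL of Soshiho-tang against 46.9, 43.5 and 44.6 CPM at 20 µg/mL (-0.53 ± 0.06 SE, adjusted p = 6.46e-08). In Yijin-tang it was 36.2, 39.4 and 35.4 CPM at 500 µg/mL against 45.6, 43.99 and 44.7 CPM at 20 µg/mL (-0.28 ± 0.06 SE, adjusted p = 0.00291). In both extracts the libraries of both concentrations were separate, and Okbyeongpung-san gave 37.9 and 38.05 CPM at 500 µg/mL against 42.5 and 43.5 CPM at 20 µg/mL (-0.18 ± 0.08 SE, adjusted p = 0.155). ACAT2 (chr6:159760328-159779055), the cytosolic thiolase that joins acetyl-CoA units, was 29.96, 30.4 and 32.7 CPM at 500 µg/mL of Soshiho-tang against 38.8, 40.3 and 36.2 CPM at 20 µg/mL, without overlap (-0.31 ± 0.07 SE, adjusted p = 0.00256). The Yijin-tang libraries of ACAT2 overlapped, with 37.4, 36.6 and 31.5 CPM at 500 µg/mL and 37.96, 36.02 and 41.1 CPM at 20 µg/mL (-0.12 ± 0.07 SE, adjusted p = 0.398). In Okbyeongpung-san ACAT2 had 31.7 and 32.95 CPM at 500 µg/mL and 33.4 and 36.2 CPM at 20 µg/mL, without overlap and without passing the test (-0.11 ± 0.09 SE, adjusted p = 0.477). Exons of ACAT2 overlap on the opposite strand with SOD2-OT1 (33.9% of exonic bases), SOD2 (26.5%) and TCP1 (9.2%). The mean count of TCP1 was 9083 against 973 for ACAT2, and the strand setting of the counting is not given in the sources used here. The GENCODE 29 identifiers of SOD2 and SOD2-OT1 had no counts in the deposited data.

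The other 5 enzymes of the mevalonate steps were not called in any extract at 500 against 20 µg/mL. The kinases MVK (8.73 to 13.0 CPM over all libraries) and PMVK (12.3 to 26.4 CPM), the decarboxylase MVD (15.35 to 22.6 CPM), the farnesyl pyrophosphate synthase FDPS (43.3 to 58.2 CPM) and GGPS1 (34.0 to 46.3 CPM), which leads to protein prenylation, ranged in log2 fold change from -0.28 ± 0.09 SE for MVK in Yijin-tang to 0.52 ± 0.15 SE for PMVK in Okbyeongpung-san (adjusted p = 0.056). PMVK was called higher in Okbyeongpung-san with DESeq2, without the filter on low counts and with the replicate numbers as a block. GGPS1 shares 37.3% of its exonic bases with TBCE on the same strand, and the GENCODE 29 identifier of TBCE had no counts in the deposited data.

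Of the 11 enzymes of the squalene and sterol steps, 6 fell in Soshiho-tang (FDFT1, SQLE, MSMO1, HSD17B7, SC5D and DHCR7), 6 in Yijin-tang (FDFT1, SQLE, LSS, MSMO1, SC5D and DHCR7) and 2 in Okbyeongpung-san (SQLE and DHCR7). SQLE (chr8:124998497-125022283), the squalene epoxidase, was 51.04, 51.7 and 54.00 CPM at 500 µg/mL of Soshiho-tang against 66.6, 69.9 and 71.1 CPM at 20 µg/mL (-0.41 ± 0.04 SE, adjusted p = 5.76e-08). In Yijin-tang SQLE was 55.3, 53.2 and 55.5 CPM at 500 µg/mL against 68.4, 67.2 and 65.5 CPM at 20 µg/mL (-0.30 ± 0.04 SE, adjusted p = 8.59e-05), and in Okbyeongpung-san 49.6 and 54.7 CPM at 500 µg/mL against 74.4 and 70.1 CPM at 20 µg/mL (-0.47 ± 0.08 SE, adjusted p = 0.00313). All SQLE libraries at 500 µg/mL lay below all at 20 µg/mL of the same extract. DHCR7 (chr11:71428193-71452868), the reductase that completes cholesterol from its 7-dehydro precursor, was 26.3, 26.4 and 27.4 CPM at 500 µg/mL of Soshiho-tang against 34.1, 33.5 and 33.6 CPM at 20 µg/mL (-0.34 ± 0.06 SE, adjusted p = 0.00023). It was 28.2, 31.7 and 24.9 CPM at 500 µg/mL of Yijin-tang against 35.3, 35.1 and 33.7 CPM at 20 µg/mL (-0.30 ± 0.06 SE, adjusted p = 0.00507), and 21.5 and 27.8 CPM at 500 µg/mL of Okbyeongpung-san against 34.9 and 35.9 CPM at 20 µg/mL (-0.52 ± 0.11 SE, adjusted p = 0.0102). No extract had overlap for DHCR7, and the Okbyeongpung-san call was lost without its replicate 2 at 500 µg/mL (adjusted p = 0.0539).

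MSMO1 (chr4:165327623-165343160), which oxidises methyl groups of lanosterol-derived sterols, was 29.5, 28.2 and 29.1 CPM at 500 µg/mL of Soshiho-tang against 40.9, 41.8 and 38.8 CPM at 20 µg/mL (-0.49 ± 0.05 SE, adjusted p = 8.59e-08). In Yijin-tang it was 29.4, 30.3 and 26.8 CPM at 500 µg/mL against 40.5, 40.5 and 41.01 CPM at 20 µg/mL (-0.50 ± 0.05 SE, adjusted p = 1.33e-06). Both differences left no overlap, as did 32.3 and 36.2 CPM at 500 µg/mL of Okbyeongpung-san against 42.1 and 37.9 CPM at 20 µg/mL, which did not pass the test (-0.23 ± 0.09 SE, adjusted p = 0.132). LSS (chr21:46188141-46228824), the cyclase that makes lanosterol, was 46.4, 47.5 and 41.95 CPM at 500 µg/mL of Yijin-tang against 58.9, 57.4 and 60.04 CPM at 20 µg/mL, without overlap (-0.38 ± 0.05 SE, adjusted p = 5.98e-05). In Soshiho-tang LSS was 54.9, 56.5 and 58.1 CPM at 500 µg/mL and 62.2, 64.3 and 57.8 CPM at 20 µg/mL, with overlap (-0.12 ± 0.05 SE, adjusted p = 0.0829), and it passed the test only without the third library at 20 µg/mL (adjusted p = 0.0308). In Okbyeongpung-san LSS was 51.9 and 51.2 CPM at 500 µg/mL and 57.03 and 57.98 CPM at 20 µg/mL (-0.16 ± 0.07 SE, adjusted p = 0.177). HSD17B7 (chr1:162790702-162812817), a sterol ketoreductase, was 3.40, 3.43 and 3.29 CPM at 500 µg/mL of Soshiho-tang against 4.74, 4.21 and 4.02 CPM at 20 µg/mL, without overlap (-0.36 ± 0.11 SE, adjusted p = 0.018). That call was lost in 4 of 13 alternatives, with adjusted p up to 0.0973. In Yijin-tang HSD17B7 overlapped between 4.13, 4.81 and 4.04 CPM at 500 µg/mL and 4.40, 3.91 and 3.88 CPM at 20 µg/mL (0.09 ± 0.11 SE, adjusted p = 0.753). In Okbyeongpung-san it had 3.42 and 4.18 CPM at 500 µg/mL and 4.11 and 4.16 CPM at 20 µg/mL (-0.12 ± 0.16 SE, adjusted p = 0.688).

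FDFT1, the squalene synthase, fell by less: -0.15 ± 0.06 SE, adjusted p = 0.0455 in Soshiho-tang and -0.20 ± 0.06 SE, adjusted p = 0.0348 in Yijin-tang. SC5D, the desaturase upstream of DHCR7, had -0.23 ± 0.07 SE, adjusted p = 0.0118 in Soshiho-tang and -0.26 ± 0.07 SE, adjusted p = 0.0219 in Yijin-tang. Of the 6 libraries left out in turn in each extract, 5 ended the FDFT1 call in Soshiho-tang and 5 in Yijin-tang, and 1 ended the SC5D call in Soshiho-tang and 4 in Yijin-tang. CYP51A1, the lanosterol demethylase, at 117 to 151 CPM over all libraries, did not move with the others: its log2 fold changes were 0.09 ± 0.05 SE in Soshiho-tang, 0.01 ± 0.06 SE in Yijin-tang and 0.07 ± 0.07 SE in Okbyeongpung-san (adjusted p = 0.233, 0.975 and 0.588 in that order). The annotation places a read-through gene over 79.4% of its exonic bases on the same strand, so reads of both cannot be told apart with certainty. The GENCODE 29 identifier of that read-through gene had no counts in the deposited data. NSDHL (31.8 to 41.5 CPM), a dehydrogenase of the demethylation complex, EBP (37.0 to 49.5 CPM), a sterol isomerase, and TM7SF2 (0.467 to 1.44 CPM), a sterol reductase, were not called in any extract. TM7SF2 rested on 13 to 40 counts per library, and its SE was 0.35 on the log2 scale in each extract.

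The 3 LXR-driven genes did not move as a group. ABCA1 (chr9:104781002-104928237), which exports cholesterol to apolipoproteins, was 98.4, 97.7 and 99.5 CPM at 500 µg/mL of Soshiho-tang against 62.8, 62.1 and 59.04 CPM at 20 µg/mL, without overlap (0.68 ± 0.07 SE, adjusted p = 1.19e-07), while its level at 100 µg/mL was 61.3, 61.2 and 60.3 CPM. It was 62.95, 58.9 and 66.00 CPM at 500 µg/mL of Yijin-tang against 61.3, 66.1 and 60.2 CPM at 20 µg/mL, with overlap (0.00 ± 0.07 SE, adjusted p = 1). In Okbyeongpung-san the levels were 87.5 and 73.9 CPM at 500 µg/mL and 73.6 and 59.5 CPM at 20 µg/mL, without overlap but also without passing the test (0.28 ± 0.13 SE, adjusted p = 0.225). MYLIP (chr6:16129125-16148248) went the other way: 7.42, 6.45 and 7.42 CPM at 500 µg/mL of Soshiho-tang against 13.2, 12.9 and 12.4 CPM at 20 µg/mL (-0.86 ± 0.09 SE, adjusted p = 3.43e-08), the largest fall of the 27 genes there. It was 8.72 and 9.24 CPM at 500 µg/mL of Okbyeongpung-san against 14.1 and 13.4 CPM at 20 µg/mL (-0.61 ± 0.10 SE, adjusted p = 0.00314). In Yijin-tang it was 12.8, 11.8 and 11.99 CPM at 500 µg/mL against 16.3, 16.04 and 13.4 CPM at 20 µg/mL (-0.32 ± 0.08 SE, adjusted p = 0.0196), a call lost in 4 of 13 alternatives with adjusted p up to 0.113. MYLIP had no overlap between both concentrations in any of the 3 extracts. ABCG1, a partner exporter, was between 0.111 and 0.565 CPM, was filtered out for low counts in Okbyeongpung-san, and had 0.48 ± 0.45 SE in Soshiho-tang and -0.23 ± 0.44 SE in Yijin-tang, neither called.

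Soshiho-tang and Yijin-tang were compared with each other at 1 concentration within a library set. At 500 µg/mL, 4 of the 27 genes were higher and 6 lower in Soshiho-tang than in Yijin-tang, a share of 37.0%, where 25.1% of all genes were called (12.4% higher and 12.7% lower). ABCA1 (0.65 ± 0.07 SE, adjusted p = 2.42e-07), LSS (0.32 ± 0.05 SE, adjusted p = 4.64e-05), HMGCS1 (0.21 ± 0.05 SE, adjusted p = 0.00415) and CYP51A1 (0.15 ± 0.05 SE, adjusted p = 0.041) were higher in Soshiho-tang. MYLIP (-0.79 ± 0.09 SE, adjusted p = 1.55e-07), HSD17B7 (-0.35 ± 0.11 SE, adjusted p = 0.0215), IDI1 (-0.25 ± 0.06 SE, adjusted p = 0.0018), INSIG1 (-0.20 ± 0.04 SE, adjusted p = 0.000535), SREBF2 (-0.14 ± 0.04 SE, adjusted p = 0.0269) and SCAP (-0.13 ± 0.05 SE, adjusted p = 0.0342) were lower. Of these, 6 were called without the third Soshiho-tang library at 500 µg/mL, with CYP51A1, HSD17B7, SREBF2 and SCAP lost. At 100 µg/mL INSIG1 alone was called, where 0.765% of all genes were (0.279% higher and 0.486% lower), and at 20 µg/mL again INSIG1 alone, where 0.136% were (0.0237% higher and 0.113% lower). INSIG1 was lower in Soshiho-tang than in Yijin-tang at both, with -0.35 ± 0.04 SE, adjusted p = 1.76e-05 at 100 µg/mL and -0.27 ± 0.04 SE, adjusted p = 0.00258 at 20 µg/mL, and the libraries of both extracts overlapped at no concentration. With only the libraries compared in the fit, INSIG1 was not called at 20 µg/mL.

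The difference between extracts in the change at 500 over 20 µg/mL was tested as an interaction. It was called for 4 of the 27 genes (14.8%), where 13.4% of all genes were called (6.52% higher and 6.91% lower). The difference, Soshiho-tang minus Yijin-tang, was 0.68 ± 0.11 SE, adjusted p = 5.16e-05 for ABCA1, -0.54 ± 0.12 SE, adjusted p = 0.00262 for MYLIP, 0.26 ± 0.07 SE, adjusted p = 0.021 for LSS and -0.25 ± 0.08 SE, adjusted p = 0.0333 for IDI1. For INSIG1 the interaction was 0.06 ± 0.06 SE, adjusted p = 0.596, for MSMO1 0.01 ± 0.07 SE, adjusted p = 0.95 and for SREBF2 -0.10 ± 0.06 SE, adjusted p = 0.361. The IDI1 and LSS calls did not hold in 6 and 5 of 19 alternatives, with adjusted p up to 0.11 for IDI1 and 0.076 for LSS. Without the third Yijin-tang library at 500 µg/mL 3 were called, with LSS lost, and without the third Yijin-tang library at 20 µg/mL 2 were called, with LSS and IDI1 lost.

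**Figure D3:**
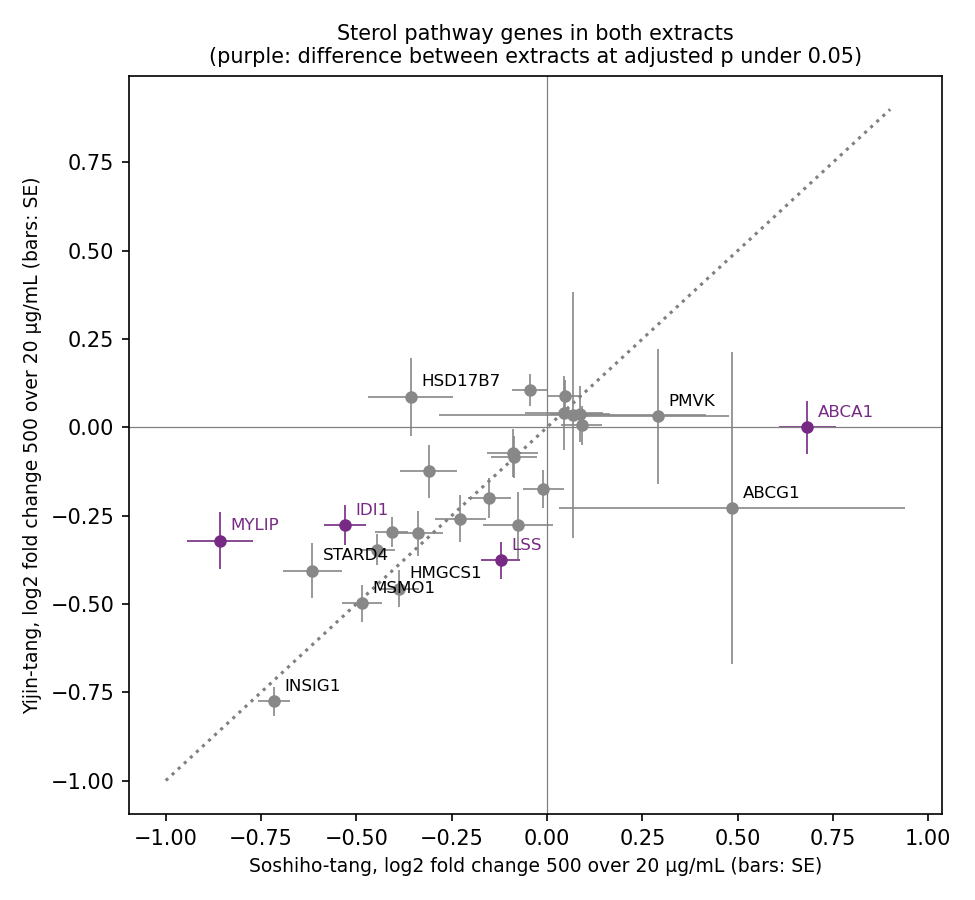
Log2 fold change at 500 over 20 µg/mL of each of the 27 genes in Soshiho-tang (horizontal axis) and Yijin-tang (vertical axis), with standard errors; the dotted line marks equal change and purple points have an adjusted p under 0.05 for the difference between extracts. INSIG1 sits near the dotted line at -0.72 and -0.78, whereas ABCA1 and MYLIP lie away from it to the right and to the left.

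Okbyeongpung-san, from another library set and partly another batch, was set beside both. At 500 µg/mL, 6 genes were higher and 2 lower in Okbyeongpung-san than in Soshiho-tang (29.6%, where 18.1% of all genes were called, 9.85% higher and 8.27% lower). Against Yijin-tang, 7 were higher and 1 lower (29.6%, where 21.6% were called, 11.3% higher and 10.2% lower). INSIG1 (0.53 ± 0.05 SE), SREBF2 (0.40 ± 0.05 SE), MYLIP, STARD4, IDI1 and MSMO1 were higher than in Soshiho-tang, and MVK and ABCA1 lower. With the replicate block, MVK was lost and INSIG2 gained, as without the filter on low counts, and DESeq2 did not call MVK. The block follows the batches of Okbyeongpung-san only, and does not adjust this contrast for batch, because all Soshiho-tang libraries are titled batch E. INSIG2 (0.39 ± 0.12 SE), ABCA1 (0.37 ± 0.10 SE), HMGCS1, INSIG1, SREBF2, MSMO1 and LSS were higher than in Yijin-tang, and MYLIP lower. Within extracts, the change at 500 over 20 µg/mL differed from that in Soshiho-tang for 4 genes, all higher (14.8%, where 7.39% of all genes were called, 4.29% higher and 3.1% lower), and from that in Yijin-tang for 2, both higher (7.41%, where 10.5% were called, 5.46% higher and 5% lower). Both counts share the Okbyeongpung-san libraries. SREBF2 fell less in Okbyeongpung-san than in either: the difference was 0.34 ± 0.07 SE, adjusted p = 0.00414 from Soshiho-tang and 0.23 ± 0.07 SE, adjusted p = 0.0386 from Yijin-tang. INSIG1 also fell less, with 0.28 ± 0.07 SE, adjusted p = 0.0192 from Soshiho-tang and 0.34 ± 0.07 SE, adjusted p = 0.00298 from Yijin-tang. STARD4 (0.46 ± 0.12 SE, adjusted p = 0.0236) and IDI1 (0.35 ± 0.09 SE, adjusted p = 0.0141) fell less than in Soshiho-tang. With only the libraries compared in the fit, 2 were called against Soshiho-tang (SREBF2 and STARD4) and 1 against Yijin-tang (INSIG1). The SREBF2 call against Yijin-tang was lost whichever library of either extract at 500 or 20 µg/mL was left out, and without the filter on low counts. Against Soshiho-tang, the STARD4 call was lost without replicate 2 of Okbyeongpung-san at 500 µg/mL, without its replicate 3 at 20 µg/mL and without replicates 1 or 2 of Soshiho-tang at either concentration. The INSIG1 call against Soshiho-tang was lost without replicate 2 of Okbyeongpung-san at 500 µg/mL, without its replicate 3 at 20 µg/mL and without the filter, and the IDI1 call without replicate 2 of Okbyeongpung-san at 20 µg/mL and without the filter. At 500 µg/mL, 5 were called against Soshiho-tang without its replicate 2, with ABCA1, MVK and MYLIP lost, and 4 against Yijin-tang without replicate 2 of Okbyeongpung-san, with ABCA1, HMGCS1, INSIG2 and LSS lost. Without replicate 3 of Okbyeongpung-san at 500 µg/mL, the differences in dose response were called for 6 genes against Soshiho-tang and 4 against Yijin-tang. Taken by batch, the median log2 ratio of 500 over 20 µg/mL over the 27 genes in Okbyeongpung-san was -0.11 in batch D and -0.12 in batch E, with 18 of 27 ratios below 0 in each. The same values over all genes were not computed by batch.

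Several genes were higher than vehicle at the lowest concentration. At 20 µg/mL of Soshiho-tang, 10 of the 27 genes were higher than vehicle and 3 lower (48.1%, where 21.6% of all genes were called, 11.2% higher and 10.4% lower), and at 20 µg/mL of Yijin-tang 9 were higher and 3 lower (44.4%, where 19.5% were called, 10.4% higher and 9.07% lower). The vehicle is a library set of its own, and both contrasts share it. HMGCS1 stood at 55.6, 52.8 and 55.95 CPM at 20 µg/mL of Soshiho-tang and 50.1, 50.3 and 48.4 CPM at 20 µg/mL of Yijin-tang, against 41.8, 42.2 and 38.6 CPM in vehicle (0.42 ± 0.05 SE, adjusted p = 9.11e-06 in Soshiho-tang and 0.28 ± 0.05 SE, adjusted p = 0.000679 in Yijin-tang). SC5D (0.38 ± 0.07 SE, adjusted p = 0.00041 in Soshiho-tang and 0.47 ± 0.07 SE, adjusted p = 5.67e-05 in Yijin-tang), ACAT2, IDI1 and INSIG1 were also higher than vehicle at 20 µg/mL of both. So was ABCA1 in both, a call lost in the 27-library fit and without vehicle replicate 1. The ABCA1 call was also lost in Soshiho-tang without its replicate 1 or 2 at 20 µg/mL, and in Yijin-tang without its replicate 2. The INSIG1 call in Soshiho-tang was lost without vehicle replicate 1 and without the filter on low counts. That of ACAT2 in Yijin-tang was lost without vehicle replicate 3 and without replicate 3 of Yijin-tang at 20 µg/mL. SREBF2, in contrast, was lower than its vehicle level of 97.8, 105 and 104 CPM already at 20 µg/mL, with -0.22 ± 0.04 SE, adjusted p = 0.000924 in Soshiho-tang and -0.19 ± 0.04 SE, adjusted p = 0.00459 in Yijin-tang. SCAP and HSD17B7 were the other genes lower than vehicle at 20 µg/mL of both extracts. The HSD17B7 call in Soshiho-tang was lost with DESeq2, without the filter on low counts and with only the libraries compared in the fit. It was also lost there without vehicle replicate 1 or 2 and without replicate 2 or 3 of Soshiho-tang at 20 µg/mL. In Yijin-tang the HSD17B7 call was lost without vehicle replicate 1.

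At 500 µg/mL, 3 genes were higher and 12 lower than vehicle in Soshiho-tang (55.6%, where 43.6% of all genes were called, 22.7% higher and 20.9% lower), and 4 were higher and 11 lower in Yijin-tang (55.6%, where 31.1% were called, 15.9% higher and 15.1% lower). In Okbyeongpung-san 3 were higher and 9 lower of 26 (46.2%, where 24.9% were called, 12.5% higher and 12.4% lower), but 8 were called with the replicate numbers as a block, with CYP51A1, FDFT1, HSD17B7 and SCAP lost, and as few as 4 without replicate 2 of Okbyeongpung-san at 500 µg/mL. That block does not adjust this contrast for batch, because all vehicle libraries are titled batch E. Leaving out vehicle replicates 1, 2 or 3 gave 6, 5 or 7. SREBF2 was lower than vehicle in all 3 extracts (-0.67 ± 0.04 SE, adjusted p = 1.85e-11 in Soshiho-tang, -0.53 ± 0.04 SE, adjusted p = 8.57e-09 in Yijin-tang and -0.27 ± 0.07 SE, adjusted p = 0.0152 in Okbyeongpung-san). In Okbyeongpung-san the SREBF2 call was lost without vehicle replicate 2 or 3 and without replicate 2 of Okbyeongpung-san at 500 µg/mL. MSMO1, with 39.01, 38.7 and 38.3 CPM in vehicle, was lower in Soshiho-tang (-0.42 ± 0.05 SE, adjusted p = 7.63e-07) and Yijin-tang (-0.42 ± 0.05 SE, adjusted p = 2.46e-06). INSIG1, with 134, 144 and 136 CPM in vehicle, was lower in Soshiho-tang (-0.56 ± 0.04 SE, adjusted p = 1.02e-10) and Yijin-tang (-0.36 ± 0.04 SE, adjusted p = 8.86e-07), while Okbyeongpung-san had -0.03 ± 0.07 SE, adjusted p = 0.804. HMGCS1 at 500 µg/mL of Soshiho-tang did not differ detectably from vehicle (0.03 ± 0.05 SE, adjusted p = 0.643), and neither did ACAT2 (-0.01 ± 0.08 SE, adjusted p = 0.935). ABCA1 was higher than its vehicle level of 45.3, 54.4 and 57.5 CPM at 500 µg/mL of all 3 extracts, with 0.91 ± 0.07 SE, adjusted p = 1.04e-09 in Soshiho-tang, 0.26 ± 0.08 SE, adjusted p = 0.0127 in Yijin-tang and 0.63 ± 0.12 SE, adjusted p = 0.00436 in Okbyeongpung-san. In Yijin-tang ABCA1 was already higher than vehicle at 20 µg/mL, with a mean of 62.5 CPM there and 62.6 CPM at 500 µg/mL. Yijin-tang had 10 genes called against vehicle without vehicle replicate 1, and its ABCA1 call was lost then and without its replicate 3. In Okbyeongpung-san the ABCA1 call was lost without replicate 2 of Okbyeongpung-san at 500 µg/mL. In Yijin-tang 9 genes were called with only the libraries compared in the fit, with CYP51A1, HMGCS1, HSD17B7, MVK, SC5D and STARD4 lost.

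**Figure D4:**
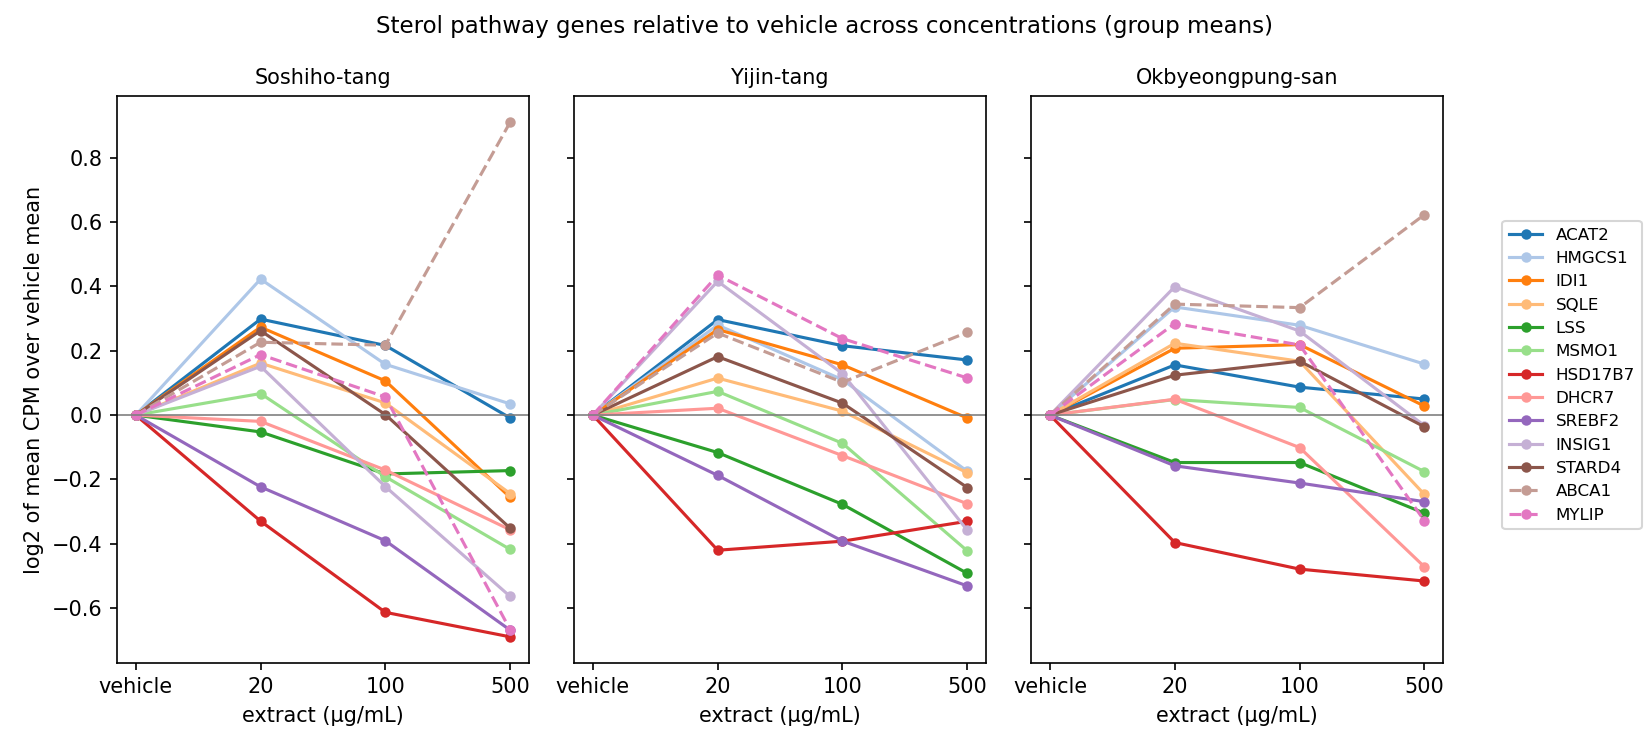
Log2 of the group mean CPM over the vehicle mean (vertical axis) at vehicle, 20, 100 and 500 µg/mL for the 13 genes described by library, in Soshiho-tang, Yijin-tang and Okbyeongpung-san; dashed lines are the LXR-driven ABCA1 and MYLIP. HMGCS1, ACAT2, IDI1 and INSIG1 lie above vehicle at 20 µg/mL and lower at 500 µg/mL in Soshiho-tang and Yijin-tang, while SREBF2 lies below vehicle at every concentration.

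Soyo-san had 1 library per concentration, so its values have no replicate check. The log2 ratio of CPM + 1 at 500 over 20 µg/mL was below 0 for 20 of the 27 genes with a median of -0.11, whereas over 13578 genes at 1 CPM or more the median was 0.00 and 49.5% were below 0. Exact binomial 95% intervals of the ratios, which cover counting error only, lay wholly below 0 for 12 genes and wholly above 0 for 2, SCAP and ABCA1. The share of all genes with such intervals was not computed. MYLIP stood at 10.1 CPM at 500 µg/mL against 14.3 CPM at 20 µg/mL, a ratio of -0.46 with an interval of -0.72 to -0.28. INSIG1 stood at 129 CPM at 500 µg/mL against 176 CPM at 20 µg/mL, a ratio of -0.45 with an interval of -0.51 to -0.39. MSMO1 (-0.40), STARD4 (-0.40) and IDI1 (-0.39) followed, and ABCA1 had a ratio of 0.28, with 75.2 CPM at 500 µg/mL against 61.7 CPM at 20 µg/mL.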

How the data were processed

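The deposited table holds estimated counts per Ensembl gene (expected counts), made by the authors with RSEM 1.3.3 after STAR 2.7.3a, Trim Galore 0.6.5 and FastQC 0.11.9, per the submitters' processing notes, which name GRCh38. The annotation and the strand setting are not given in the sources used here. Between 9.24% and 10.73% of values per library were not whole, and they were rounded. Symbols and coordinates came from GENCODE 29, which matched 57055 of 60675 rows, and all 27 genes were found; 30 blank columns were not used. The sample labels and the series text give different DMSO concentrations for the vehicle.

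Genes were tested with edgeR 4.0.16 in R 4.3.3 (limma 3.58.1): TMM scaling, filterByExpr (minimum count 10, total 15), a quasi-likelihood fit and test, and Benjamini-Hochberg adjustment over all genes. Calls have an adjusted p under 0.05, and SE is the absolute log2 fold change over the square root of F. Soshiho-tang, Yijin-tang and vehicle shared a fit of 21 libraries (16872 genes), Okbyeongpung-san and vehicle one of 9 (16606 genes), and Okbyeongpung-san was set against the other extracts in one of 27 (17396 genes). DESeq2 1.42.0, other scalings and filters, replicate blocks and left-out libraries were alternatives. The test was tried on simulated data. Soyo-san ratios used a pseudocount of 1 CPM and no test.

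The 27 genes and the lists were chosen with earlier results of these data known. Values by library are given for 13 genes: those called at 500 against 20 µg/mL in any of the 3 extracts and among the 4 largest log2 fold changes of their role class in Soshiho-tang or Yijin-tang. Replicate numbers of Okbyeongpung-san mark batches in the titles (2 is E, 3 is D) and so pair its libraries; same-numbered deviations correlated at 0.08 for 500 and 20 µg/mL and at 0.26 for 100 and 20 µg/mL.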

Additional observations from a re-analysis of the deposited data

Results flagged for a closer look

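The change at 500 over 20 µg/mL differed between extracts, by a test of the difference itself, for 7 of the genes described, pooled over 3 tests that share libraries. Between Soshiho-tang and Yijin-tang 4 of the 27 genes were called, where 13.4% of all genes were. Okbyeongpung-san had 4 called against Soshiho-tang, where 7.39% of all genes were, and 2 against Yijin-tang, where 10.5% were. Between Soshiho-tang and Yijin-tang, which belong to the same library set and batch, the difference in log2 fold change was 0.684 for ABCA1, -0.536 for MYLIP, 0.255 for LSS and -0.252 for IDI1. ABCA1 was 98.4, 97.7 and 99.5 CPM at 500 µg/mL of Soshiho-tang and 62.95, 58.9 and 66.00 CPM at 500 µg/mL of Yijin-tang, with 20 µg/mL levels of 62.8, 62.1 and 59.04 CPM in Soshiho-tang and 61.3, 66.1 and 60.2 CPM in Yijin-tang. The ABCA1 and MYLIP differences were called in all 19 alternatives, unlike those of LSS and IDI1.

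Between Okbyeongpung-san and Soshiho-tang the difference was 0.457 for STARD4, 0.351 for IDI1, 0.335 for SREBF2 and 0.285 for INSIG1. Between Okbyeongpung-san and Yijin-tang it was 0.343 for INSIG1 and 0.233 for SREBF2. These share the Okbyeongpung-san libraries, of which 1 of 2 at each concentration is from batch D, and the part of batch and library set in the differences was not tested.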

How the results depend on the processing

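Over 65 results of the 13 described genes and 897 alternatives, the direction was kept in every called case; 858 kept their side of the threshold, 34 lost the call and 5 gained it. The number of the 27 genes called moved by more than 1.5 times as follows. At 500 against 20 µg/mL of Okbyeongpung-san, 4 became 7 in the 27-library fit and 2 with only the groups compared. At 100 against 20 µg/mL of Soshiho-tang, 1 became 2 with DESeq2 size factors, with the replicate block or without mitochondrial genes, 3 with the DESeq2 test and 4 without a filter. At 100 against 20 µg/mL of Yijin-tang, 1 became 2 with the DESeq2 test and 0 with only the groups compared. With only the groups compared, counts also became 0 (from 1) at 20 µg/mL between Soshiho-tang and Yijin-tang, 5 and 4 (both from 8) for Okbyeongpung-san at 500 µg/mL against Soshiho-tang and Yijin-tang, 2 (from 4) and 1 (from 2) for the differences of its dose response from theirs, and 9 (from 15) for Yijin-tang at 500 µg/mL against vehicle. The difference in dose response between Soshiho-tang and Yijin-tang gave 2 (from 4) without a filter.

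Leaving out each replicate in turn gave 12 to 14 genes at 500 against 20 µg/mL of Soshiho-tang, 9 to 11 of Yijin-tang and 3 to 4 of Okbyeongpung-san. It gave 0 to 1 at 100 against 20 µg/mL of Yijin-tang, 6 to 9 at 500 µg/mL between Soshiho-tang and Yijin-tang and 2 to 4 for the difference of their dose responses. Okbyeongpung-san gave 5 to 7 against Soshiho-tang and 4 to 9 against Yijin-tang at 500 µg/mL, 3 to 6 and 1 to 4 for the differences in dose response, and 4 to 12 against vehicle. Against vehicle, Soshiho-tang gave 15 to 16 and Yijin-tang 10 to 13 at 500 µg/mL, and 9 to 14 and 10 to 12 at 20 µg/mL.

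Counts over all genes moved too: at 100 against 20 µg/mL, 8 in Soshiho-tang became 101 and 2 in Yijin-tang 67 without a filter (15 and 9 with the DESeq2 test), and 0 in Okbyeongpung-san became 7. At 500 against 20 µg/mL, 934 in Yijin-tang became 349 and 1778 in Okbyeongpung-san 758 with only the groups compared; in the 27-library fit Okbyeongpung-san gave 3042. Between Soshiho-tang and Yijin-tang, 129 genes at 100 µg/mL became 396 and 23 at 20 µg/mL became 252 without a filter. Leaving out 1 library gave 514 to 1063 genes in Yijin-tang and 756 to 2049 in Okbyeongpung-san at 500 against 20 µg/mL, and between Soshiho-tang and Yijin-tang 63 to 130 at 100 µg/mL and 9 to 46 at 20 µg/mL.

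The replicate numbers of Soshiho-tang and Yijin-tang share only a number, with correlations between -0.14 and 0.08 of same-numbered deviations. The replicate block left 14 and 12 genes called at 500 against 20 µg/mL there. In Okbyeongpung-san, whose replicate numbers mark its batches, the block gave 5. Against vehicle it gave 8, but it does not adjust for batch there, because all vehicle libraries are titled batch E. Depth limits TM7SF2 and ABCG1, both near or under 1 CPM, for which no difference was detectable at this depth. Low sample number limits Okbyeongpung-san, with 2 libraries per group, and Soyo-san, with 1.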

Other observations

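Genes of sterol handling outside the 27, from a list of 21 chosen with earlier results known (20 tested), had 10 members that rose and 2 that fell at 500 against 20 µg/mL of Soshiho-tang, where 14.5% of all genes rose and 14.2% fell. Their median log2 fold change was 0.16, against 0.01 over all genes. NR1H3, which encodes LXR alpha, rose with a log2 fold change of 0.94 ± 0.17 SE, adjusted p = 0.000191, NPC1, which carries cholesterol out of lysosomes, with 0.91 ± 0.05 SE, adjusted p = 3.00e-12, and CYP27A1, a sterol hydroxylase, with 0.87 ± 0.23 SE, adjusted p = 0.00474. Levels were low for NR1H3 (1.32 to 3.80 CPM over all libraries) and CYP27A1 (0.888 to 2.34 CPM). Alternatives for single genes were recorded only for the 27 genes. In Yijin-tang only NR1H3 (0.66 ± 0.18 SE, adjusted p = 0.0268) and NPC1 (0.47 ± 0.05 SE, adjusted p = 3.71e-06) rose, where 2.59% of all genes rose and 2.95% fell, with a median of 0.01. In Okbyeongpung-san 4 rose and 1 fell, where 5.42% of all genes rose and 5.29% fell, led by the lipoprotein receptor LRP8 (0.51 ± 0.08 SE, adjusted p = 0.00177), the cholesterol esterifying enzyme SOAT1 (0.44 ± 0.10 SE, adjusted p = 0.0166) and NPC1 (0.42 ± 0.08 SE, adjusted p = 0.00749). The rise of NPC1 differed between Soshiho-tang and Yijin-tang by 0.44 ± 0.08 SE, adjusted p = 0.000193.

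Of 16 fatty acid genes tested, 2 rose and 9 fell at 500 against 20 µg/mL of Soshiho-tang (median -0.18), 2 rose and 3 fell in Yijin-tang (-0.07) and 1 rose and 5 fell in Okbyeongpung-san (-0.21). Of all genes, 28.6% were called in Soshiho-tang, 5.54% in Yijin-tang and 10.7% in Okbyeongpung-san. SCD, the stearoyl-CoA desaturase, fell in all 3: -0.58 ± 0.05 SE, adjusted p = 6.04e-09 in Soshiho-tang, -0.49 ± 0.05 SE, adjusted p = 1.98e-06 in Yijin-tang and -0.70 ± 0.09 SE, adjusted p = 0.000491 in Okbyeongpung-san. FADS2, a desaturase of polyunsaturated fatty acids, fell in all 3 as well, with -0.62 ± 0.06 SE, adjusted p = 3.02e-09 in Soshiho-tang, -0.29 ± 0.05 SE, adjusted p = 0.00164 in Yijin-tang and -0.51 ± 0.09 SE, adjusted p = 0.00331 in Okbyeongpung-san. SREBF1, the paralogue of SREBF2 that drives fatty acid genes, had -0.31 ± 0.07 SE, adjusted p = 0.00156 in Soshiho-tang, -0.17 ± 0.07 SE, adjusted p = 0.184 in Yijin-tang and -0.56 ± 0.09 SE, adjusted p = 0.00288 in Okbyeongpung-san. MID1IP1, a regulator of acetyl-CoA carboxylase, rose in Soshiho-tang (0.41 ± 0.05 SE, adjusted p = 4.83e-07), and GPAM, which starts glycerolipid synthesis, rose in Yijin-tang (0.28 ± 0.05 SE, adjusted p = 0.000999). ME1, which supplies NADPH, was 1.01 ± 0.09 SE in Okbyeongpung-san (adjusted p = 9.07e-05), the largest rise in that list.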
